A study of Ovis aries with 17 samples.

Results

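Macrophages sorted from sheep spleen (MP, 3 arrays) were compared with XCR1-negative dendritic cells sorted from sheep blood (DC XCR1-, called cDC2 here after conventional dendritic cell type 2, 3 arrays). These 6 arrays were chosen by their titles among the 17 arrays of the series. RNA was hybridised to a custom sheep Agilent array read in 1 colour, and the comparison was described for the genes that carry a symbol, 270 of 11311 genes tested. The study asked which sheep mononuclear phagocytes correspond to which human and mouse subsets, and this comparison sets the macrophage side against the conventional dendritic cell side.

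MP were sorted from spleen cell suspensions with an antibody to CD14. cDC2 were sorted from the low density cells of the blood of several sheep as large CD11c+ cells, high for CD172 and low for CADM1, after exclusion of cells stained for a B cell marker, CD11b, the TCR1 receptor or CD45RB. The labels name no treatment of either group, and the age of the sheep is not given in the sources used here. Where a sort gave too little RNA, that of several animals was combined per the labels, so an array need not be 1 animal, and p-values measure only the spread between these arrays. The groups therefore differ in tissue and in sort as well as in cell type, and these cannot be told apart.

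The arrays lay on 4 slides. Each MP array was on a slide of its own together with B lymphocytes (B), plasmacytoid dendritic cells (pDC) and GM-CSF cultures (labelled MoDC) of the same replicate number. The 3 cDC2 arrays shared the fourth slide with the XCR1-positive dendritic cells (cDC1, 1 array) and B replicate 4. No slide held both MP and cDC2, so the groups cannot be compared within a slide, and B replicate 4 was the array through which the slides could be linked. Spot signals had a 75th percentile of 194 to 491 in MP and of 313 to 595 in cDC2, in units of background-corrected brightness. Between 61.1% and 71.3% of the spots were well above background in MP, against 72.2% to 80.2% in cDC2. Pearson's r across genes, which are not independent replicates, was 0.941 to 0.961 among MP arrays, 0.982 to 0.989 among cDC2 arrays and 0.892 to 0.931 between the groups.

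Macrophages are phagocytes that clear cells and microbes and release prostaglandins and inflammatory cytokines when stimulated. Conventional dendritic cells present antigen to T cells and depend on the receptor FLT3 for their development. CSF1R, the receptor for macrophage colony-stimulating factor, plays the corresponding role in macrophages, and CD14 is a co-receptor for bacterial lipopolysaccharide. PTGS2 (cyclooxygenase-2) is the inducible enzyme that starts prostaglandin synthesis. Values below are log2 signal relative to the 75th percentile of the array, so 0 is a signal equal to that percentile. Differences are MP minus cDC2 on the log2 scale with the standard error (SE) of the limma fit over all 17 arrays. Some results are also given after normexp background correction, an alternative that starts from the median spot and local background signals. It fits a model of signal and background and then adds a fixed offset of 50 to every spot. A gene was called at an adjusted p under 0.05, over all genes tested, and at least a 2-fold difference.

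The oligonucleotide probes below measured *FLT3*, *ITGAM*, *IL1A* and *SELP*, the 4 genes with a symbol that were called both with and without a fixed term for slide, and the macrophage marker *CSF1R*, which was called only without that term. Each is 60 bases long, as the array files give it, in lower case with no base singled out. The files do not place these probes on a genome.
FLT3: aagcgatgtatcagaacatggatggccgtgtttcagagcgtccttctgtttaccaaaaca
CSF1R: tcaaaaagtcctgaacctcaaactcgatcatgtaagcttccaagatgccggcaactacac
ITGAM: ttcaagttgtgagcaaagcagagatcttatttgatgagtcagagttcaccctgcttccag
IL1A: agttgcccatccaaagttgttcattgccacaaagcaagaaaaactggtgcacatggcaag
SELP: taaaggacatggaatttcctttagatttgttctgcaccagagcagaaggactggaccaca

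Marker genes were read beside the labels. Of 10 markers listed for MP, 4 were measured, namely *CD14*, *CSF1R*, *PTGS2* and *ITGAM*. CD14 was the sort marker of MP, and CD11b, which *ITGAM* encodes, was used to exclude cells from cDC2, so neither gene checks the labels independently. Of 6 markers listed for cDC2, 1 was measured, *FLT3*. The study lists FLT3 for cDC1 and pDC as well, so it cannot tell cDC2 from those cells. *FLT3* was at -1.71, -0.88 and -0.996 on the MP arrays and at 1.502, 1.30 and 1.26 on the cDC2 arrays. Its difference was -2.55 ± 0.45 (SE, limma adjusted p = 0.00245), 5.86-fold higher in cDC2, and the arrays of the groups did not overlap. *CSF1R* ran the other way, at -0.71, -0.51 and -0.07 in MP and at -2.19, -3.46 and -2.95 in cDC2, a difference of 2.43 ± 0.67 (SE, limma adjusted p = 0.0294), a call that was lost when any 1 of the 6 arrays except cDC2 replicate 1 was left out. With normexp it was 1.67 and called. *CD14* was at 5.29, 6.84 and 6.23 in MP and at 3.62, 3.58 and 3.69 in cDC2, a difference of 2.49 ± 0.36 (SE, limma adjusted p = 0.000662). MP were sorted with an antibody to CD14, and the part of the sort in this difference was not tested. On the cDC2 arrays *CD14* still lay far above B, where it averaged -1.16 ± 0.29 (SD, n = 4), and above pDC, at 0.00 ± 0.18 (SD, n = 3). A second, dimmer *CD14* probe differed by 2.55.

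*PTGS2* had the largest difference of all genes with a symbol. It was at 5.77, 5.81 and 5.25 on the MP arrays and at -0.39, -2.14 and -1.86 on the cDC2 arrays. The difference was 7.07 ± 1.00 (SE, limma adjusted p = 0.000486), which is 134-fold. With normexp it was 6.45. A second set of spots that the files name *PGHS2* carries the same 60 bases, and its difference of 6.90 therefore repeats the measurement and is no second gene. The level of *PTGS2* varied between arrays of other groups, with an SD of 1.80 in the 4 B arrays around a mean of 0.75 and of 2.08 in the 3 pDC arrays around a mean of -5.00.

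**Figure D1:**
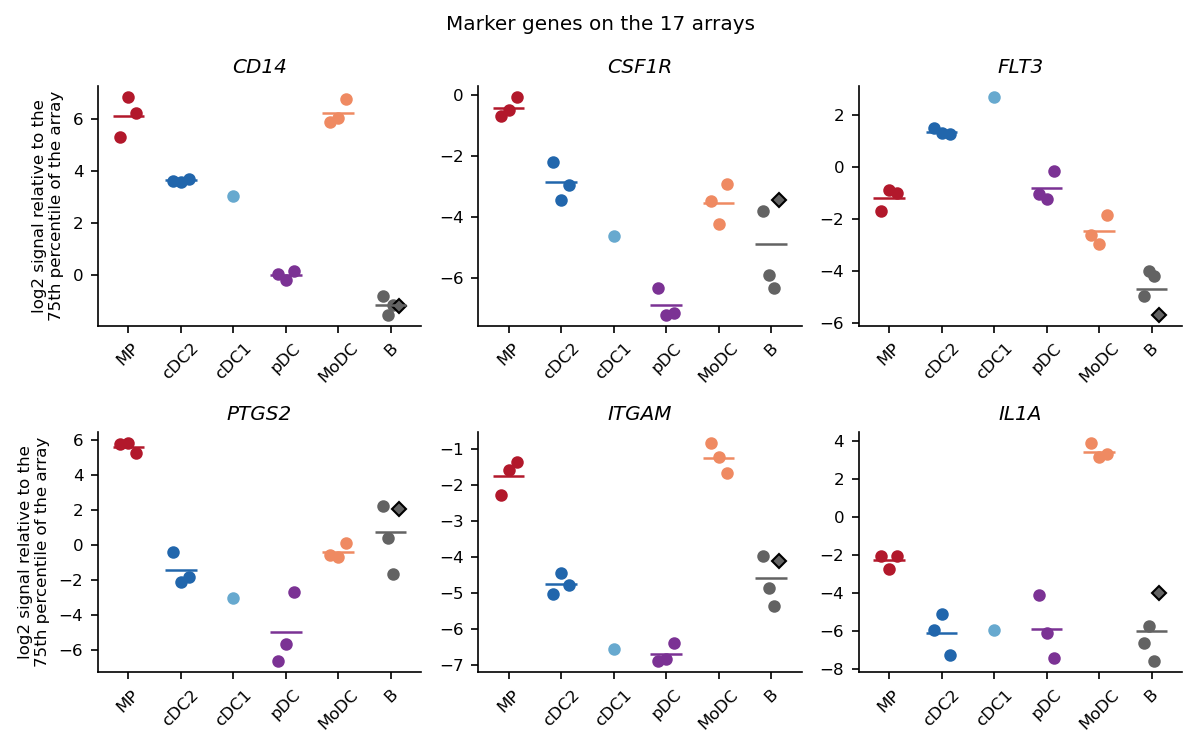
Log2 signal relative to the 75th percentile of the array (vertical axis) for 6 genes in the 6 groups (horizontal axis). Each point is 1 array, horizontal lines are group means, and the diamond is B replicate 4, which shared the slide of cDC2. For each gene the 3 MP arrays lie clear of the 3 cDC2 arrays, higher for all but *FLT3*.

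Among all genes tested, 1271 were called (11.2%), of which 565 (5.0%) were higher in MP and 706 (6.24%) higher in cDC2. After normexp background correction the split turned, with 474 higher in MP and 348 higher in cDC2. Over all genes, the median difference rose by 0.21 under that correction. Of the 270 genes with a symbol, 60 were called (22%), 30 in each direction, with *PTGS2* and *PGHS2* counted separately. In all 60 the arrays of the groups did not overlap. Arrays that do not overlap were common, however. They were found for 5506 of all genes (48.7%), with 21.8% higher in MP and 26.9% higher in cDC2, and for 146 of those with a symbol (54.1%). The number of genes with a symbol that were called depended on single arrays: it was 31 without MP replicate 2, and 34, 33 and 29 without cDC2 replicates 1, 2 and 3.

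Markers of macrophages and monocytes were higher in MP in the fit without a slide term. All 4 members measured were called, which were *CD14*, *CSF1R*, *ITGAM* and *LYZ*, with a median difference of 2.46 against -0.09 over all genes, where 11.2% of all genes and 22% of those with a symbol were called. Of these 4, 2 were called without MP replicate 1, 2 or 3 or cDC2 replicate 2 or 3, 3 with slide as a random block and 1 with slide as a fixed block. *ITGAM*, which encodes CD11b, was at -2.28, -1.59 and -1.35 in MP and at -5.04, -4.44 and -4.77 in cDC2, 8.05-fold higher in MP (limma adjusted p = 0.000253). The cDC2 sort excluded CD11b-positive cells, and MP were sorted with an antibody to CD14. The list count and median therefore include 2 genes tied to the sorts and are no test free of them. The part of the sort in the differences of *ITGAM* and *CD14* was not tested. With normexp the difference of *ITGAM* was 1.30, and it was 1.97 by the series table of the authors, against 3.01 here. It was called in each. *LYZ*, which encodes the antibacterial enzyme lysozyme, was at 7.49 ± 0.08 (SD, n = 3) in MP and 5.40 ± 0.14 (SD, n = 3) in cDC2, a difference of 2.09 ± 0.55 (SE, limma adjusted p = 0.0248). Its call was lost when any 1 of the 6 arrays was left out, with differences of 2.02 to 2.16.

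Of 16 cytokines and chemokines measured, 6 were higher in MP, 2 were higher in cDC2 and 8 were not called, with a median difference of 1.26. Among all genes tested 11.2% were called, and among those with a symbol 22%. The 8 calls became 3 without cDC2 replicate 1 or 3, 4 without MP replicate 2 or 3 or cDC2 replicate 2, 3 for probes well above background on all 6 arrays, and 1 with slide as a fixed block. *IL1B*, an inflammatory cytokine, was at 1.35, 0.80 and 2.64 in MP and at -2.50, -2.22 and -2.12 in cDC2, a 14.7-fold difference (limma adjusted p = 0.0028). *IL1A*, its relative that binds the same receptor, was at -2.06, -2.77 and -2.05 in MP and at -5.99, -5.11 and -7.31 in cDC2, a difference of 3.84 (limma adjusted p = 0.0119). On cDC2 replicate 3 it was not well above background, and without that array the difference was 3.25 and not called (limma adjusted p = 0.0665). With normexp it was 1.32, and it was 2.09 by the series table of the authors, called in both. *IL1B* was 3.098 with normexp, against 3.88 here. Both cytokines were higher still in MoDC, at 4.24 ± 1.74 for *IL1B* and 3.44 ± 0.38 for *IL1A* (SD, n = 3 each). *IL10*, an inhibitor of inflammation, was at 1.99, 3.03 and 0.55 in MP and at -2.24, -1.25 and -1.72 in cDC2, a difference of 3.59 ± 0.65 (SE, limma adjusted p = 0.0028), or 2.98 with normexp. It was 3.01 without MP replicate 2 and 4.25 without MP replicate 3, and called in both.

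*IL15* and *IL7*, which sustain lymphocytes, were dim. *IL15* was at -4.09, -4.14 and -3.80 in MP and at -6.67, -6.13 and -6.23 in cDC2, where 1 of 3 arrays was well above background, and its call was lost when any 1 of the 6 arrays was left out. *IL7* was not well above background on any cDC2 array and was at least 2.10-fold higher in MP, where 2 of 3 arrays were (limma adjusted p = 0.0334). A bound of this kind sets the brighter group's mean against the lowest signal well above background on each array of the dimmer group, and holds for this scaling alone. With normexp the differences of *IL15* and *IL7* were 0.82 and 0.51, and neither was called. *IL7* also lost its call with the series table of the authors and when any 1 of the 6 arrays except MP replicate 3 was left out. *IGF1* was called, but it was not well above background on any of the 6 arrays, so no fold is given. *TNF*, *CXCL1* and *IL18* differed by 0.64, 0.31 and 0.72 and were not called. *CXCL10* differed by 2.24 with arrays that did not overlap (limma adjusted p = 0.157), and *CXCL8* was at 0.23, 3.77 and 3.44 in MP, the lowest of which lay below all 3 cDC2 arrays.

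The cytokines higher in cDC2 were *MIF* and *IL6*. *MIF*, macrophage migration inhibitory factor, was at 0.71, 1.07 and 0.99 in MP and at 2.85, 3.13 and 3.21 in cDC2, a difference of -2.14 ± 0.60 (SE, limma adjusted p = 0.0328). Its call was lost when any 1 of the 6 arrays was left out (differences of -2.24 to -2.03) and with slide as a random block (limma adjusted p = 0.0782). The means of B, pDC and MoDC were between 2.97 and 4.34, and the cDC1 array was at 4.504. *IL6* was not well above background on any MP array and at least 1.25-fold higher in cDC2 (limma adjusted p = 0.0457). B replicate 4 departed from the other B arrays in the same direction for *IL6*, by 1.05, and after normexp background correction its difference was 0.02. Its call was lost with the series table of the authors too, and when any 1 of the 6 arrays except cDC2 replicate 2 was left out.

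The prostanoid list held *PTGS2* under both names, *PTGS1* and *PTGDS*. *PTGS1*, the constitutive cyclooxygenase, was at 3.48, 0.91 and 0.20 in MP and at -0.51, -0.50 and -0.83 in cDC2, a difference of 2.14 that was not called (limma adjusted p = 0.195). *PTGDS*, which makes prostaglandin D2, differed by -1.55 and was not called. It was well above background on 1 MP array and carried the slide mark described below.

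Genes of iron handling, lysosomes and oxidative defence had 3 of 5 members higher in MP and none higher in cDC2, with a median of 1.02, against 22% called among all genes with a symbol. With slide as a random block 1 was called, *LYZ* and *TXN* being lost (limma adjusted p = 0.0509 and 0.0536), with the fixed block none, and 1 when MP replicate 1 or 2 or any cDC2 array was left out. *SLC11A1* (NRAMP1), a metal transporter of the phagosome, was at 5.61, 6.45 and 6.44 in MP and at 2.67, 2.78 and 2.87 in cDC2, a 10.5-fold difference (limma adjusted p = 0.00818). *LYZ* is given above, and *TXN*, thioredoxin, differed by 1.02. *FTH1*, the ferritin heavy chain, passed the adjusted p at a difference just under 2-fold (0.997, adjusted p = 0.0487) and was singled out after its values were seen.

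Lipid genes had 3 of 11 members higher in MP and none higher in cDC2, with a median of 0.35, where 22% of all genes with a symbol were called. None of the 3 was called with slide as a fixed block. *PPARG*, a nuclear receptor that governs lipid storage, was at -0.24, -1.24 and -0.45 in MP and at -3.08, -2.60 and -3.03 in cDC2, a 4.78-fold difference (limma adjusted p = 0.00368), or 2.26 on the log2 scale against 1.59 with normexp. *ABHD5*, a cofactor of triglyceride breakdown, was at -0.04, 0.33 and -0.51 in MP and at -2.67, -2.89 and -2.67 in cDC2. It had an adjusted p of 8.91e-05 by limma, and it carried the slide mark described below. Its difference was 2.67, or 1.83 with normexp. *ABCG2*, an efflux transporter, was dim, with 1 MP array and no cDC2 array well above background. It was at -3.96, -4.70 and -4.43 in MP and at -6.35, -6.78 and -5.31 in cDC2, no fold is given, and its call was lost with normexp (difference 0.67), with the series table of the authors and without MP replicate 1 or cDC2 replicate 1 or 2.

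Of 6 integrins and adhesion molecules, *ITGAM* and *SELP* were higher in MP, a share not far from the 22% among all genes with a symbol. *SELP*, P-selectin of platelets and endothelium, was at -4.004, -3.93 and -4.27 in MP and not well above background on any cDC2 array, a difference of at least 3.70-fold (limma adjusted p = 0.00212) that was 0.76 on the log2 scale and not called with normexp. *ITGB2*, the partner chain of CD11b, was at 5.57, 5.57 and 5.47 in MP and at 4.54, 4.49 and 4.54 in cDC2, a tight difference of 1.01 that was not called (limma adjusted p = 0.16). *CADM1*, a marker of the cDC2 gate, overlapped between the groups.

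Other genes among the 15 largest differences toward MP were *LPAR1*, *INHBA*, *PDXK*, *STAR* and *FASLR*. *LPAR1*, a receptor for lysophosphatidic acid, was well above background on 2 MP arrays and no cDC2 array and was at least 4.05-fold higher in MP (limma adjusted p = 0.0367), against a difference of 0.90 that was not called with normexp. Without MP replicate 1 or 3 or cDC2 replicate 2 or 3 it was not called either, and leaving out 1 array gave 2.53 to 3.87. *INHBA*, a subunit of activin A, was well above background on 3 MP and 2 cDC2 arrays and differed by 2.92 (limma adjusted p = 0.00477), or by 1.14 with normexp, where it was not called. *PDXK*, which activates vitamin B6, was 7.20-fold higher (limma adjusted p = 0.000236). *PDXK* varied little within the groups, at 5.17, 4.86 and 4.84 in MP and at 1.91, 2.29 and 2.13 in cDC2. *STAR*, which carries cholesterol into mitochondria, was well above background on 2 MP arrays and 1 cDC2 array. Its difference of 2.78 (limma adjusted p = 0.00984) was 0.76 with normexp and then not called, nor was it without MP replicate 2 or cDC2 replicate 2. *FASLR*, the name the files give to the Fas ligand receptor, differed by 2.44, or by 1.31 with normexp, and carried the slide mark.

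Of 10 dendritic cell markers, *FLT3* and *IRF8* were higher in cDC2 and 8 were not called, with a median of -0.32. This share was near the 22% called among all genes with a symbol, and *FLT3* alone was called with slide as a fixed block. *IRF8*, a transcription factor of dendritic cell development, was at 2.33, 2.45 and 2.72 in MP and at 4.44, 4.10 and 4.33 in cDC2, a difference of -1.79 ± 0.41 (SE, limma adjusted p = 0.0124). A second *IRF8* probe differed by -1.98. The costimulatory genes *CD80* and *CD86* differed by 0.08 and -0.24 and were not called, with overlapping arrays. *TCF4*, a transcription factor of pDC, did not overlap but was not called, at a difference of -1.47 (limma adjusted p = 0.223). Of the 6 cDC1 markers and 4 pDC markers, the called ones were *FLT3* and *IRF8* in the former and *IRF8* in the latter. *XCR1* and *BATF3*, which mark cDC1, overlapped between the groups, and *CLEC9A* was not well above background on any of the 6 arrays.

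Of 13 cytokine and growth factor receptors, *CSF1R* was higher in MP and *FLT3*, *IL2RA* and *CCR3* were higher in cDC2, against 22% called among all genes with a symbol. The 4 calls became 1 without cDC2 replicate 2 or 3, 2 without MP replicate 1 or 2, 2 with normexp and 1 with slide as a fixed block. *CCR3*, a chemokine receptor, was at -3.19, -2.69 and -2.84 in MP and at -1.22, -1.59 and -1.49 in cDC2, a 2.77-fold difference (limma adjusted p = 0.0194) that was not called with normexp, at -0.77, nor without MP replicate 1 or any 1 cDC2 array. In the interferon response list, *IRF8* and *STAT5A* were higher in cDC2, and the other 7 of 9 were not called, a share equal to that among all genes with a symbol (22%). It held 1 call with slide as a random block, with quantile normalization and without MP replicate 2 or any 1 cDC2 array, and none with slide as a fixed block. *STAT5A*, a signal transducer of cytokine receptors, differed by -1.61 ± 0.43 (SE, limma adjusted p = 0.0277), with 1 MP array well above background. Its difference was -0.22 with normexp and -0.67 in the authors' series table, and its call was lost in both, with quantile normalization, with either slide block and without MP replicate 2 or any 1 cDC2 array. The interferon-induced genes *ISG15*, *MX1* and *MX2* were highest on MP replicate 1, at 4.40, 4.06 and 5.09, while *MX2* was at 1.67 and 2.39 on the other MP arrays and between 1.63 and 2.01 in cDC2. None of the 3 was called. *IRF1* was at 2.17, 1.72 and 1.86 in MP and at -0.63, -0.79 and -0.49 in cDC2, and its difference of 2.55 was not called (limma adjusted p = 0.0643). *CD14* was the called member of the 3 pattern recognition receptors.

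**Figure D2:**
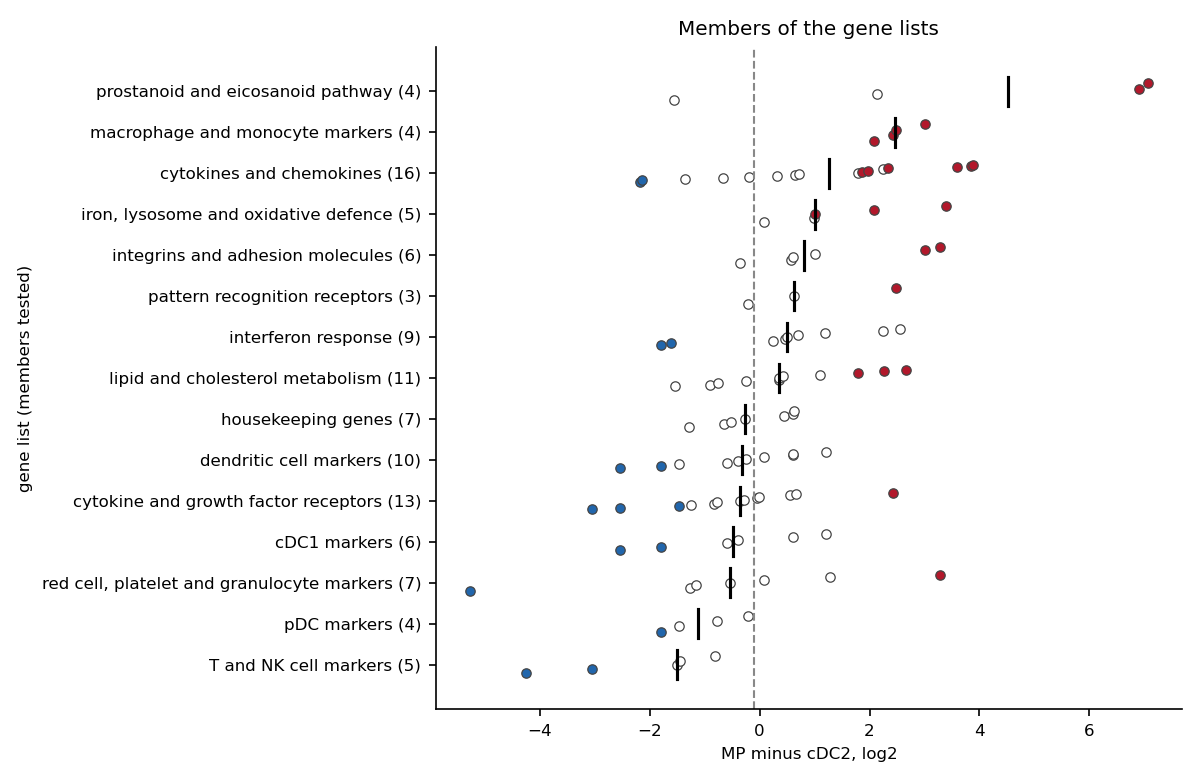
Difference MP minus cDC2 on the log2 scale (horizontal axis) for each tested member of 15 gene lists (vertical axis, with the number tested). Filled points were called, red higher in MP and blue higher in cDC2, black bars are list medians and the dashed line is the median of all genes, -0.09. The macrophage markers all lie to the right of 0, the prostanoid list draws *PTGS2* under both its names, and the T and NK cell markers have the lowest list median.

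Some markers of other cell types also differed. Of 5 T and NK cell markers measured, *GNLY* and *CD247* were higher in cDC2 and none was higher in MP, with a median of -1.502, against 22% called among all genes with a symbol. The 2 calls became 0 with slide as a fixed block and for probes well above background on all 6 arrays, 1 without MP replicate 1 or 2 or cDC2 replicate 3, and 4 without MP replicate 3. Their summed signal, as a ratio to the 75th percentile of the array, was 1.06 to 2.57 on the MP arrays and 4.46 to 5.95 on the cDC2 arrays. *GNLY*, granulysin of cytotoxic granules, was at -6.43, -1.82 and -4.75 in MP and at 0.10, -0.10 and -0.25 in cDC2, a difference of -4.25 (limma adjusted p = 0.0133). It was well above background on 2 of the MP arrays, and the difference was -3.21 and not called without MP replicate 1 (limma adjusted p = 0.0622) and -5.51 without MP replicate 2. With normexp it was -2.34, and it was -3.06 by the series table of the authors, called in both. *CD247*, the zeta chain of the T cell receptor complex, was at -3.28, -4.78 and -3.65 in MP and at -0.96, -0.89 and -0.72 in cDC2, a difference of -3.05 ± 0.73 (SE, limma adjusted p = 0.015) that was not called without MP replicate 2 or cDC2 replicate 3 and was -1.52 with normexp. *IL2RA*, the alpha chain of the interleukin-2 receptor, was at -5.39, -6.80 and -3.86 in MP and at -2.58, -2.21 and -2.08 in cDC2, a difference of -3.06 (limma adjusted p = 0.015). It was well above background on 1 MP array, and its difference with normexp was -0.71 and not called (limma adjusted p = 0.443). It was also not called without MP replicate 2, at -2.33, or without cDC2 replicate 2 or 3, and it was -3.80 without MP replicate 3. *CD3E* and *CD3D*, further chains of the T cell receptor complex, differed by -1.502 and -1.46 and were not called (limma adjusted p = 0.0645 and 0.0592). *CD3E*, whose difference is the list median, carried the slide mark described below. So did *CTLA4*, which differed by -0.82 and was not called, with 1 MP array well above background. Both *CD3* genes were well above background on all 6 arrays, and *CD247* on 2 of the MP arrays and all 3 cDC2 arrays. *GNLY*, *CD247* and *CD3E* were highest in pDC among the groups of the series. The 4 pDC markers measured had a median difference of -1.12, with *IRF8* alone called. Their summed signal was 5.73 to 7.22 on the MP arrays and 18.6 to 23.5 on the cDC2 arrays. The study proposes that pDC probably contaminated its sheep cDC2 to a limited degree, and the part of pDC in these differences was not tested. Fewer cells of a type and less RNA per cell cannot be told apart in such samples, and the part of these markers in the other differences was not tested.

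*HBB*, the beta chain of haemoglobin, was not well above background on any MP array, and was at -2.88, 0.42 and -0.42 on the cDC2 arrays, at least 14.7-fold higher (limma adjusted p = 0.001). Its difference, -5.28 as measured, was -6.24 without cDC2 replicate 1 and -4.59 without cDC2 replicate 2, so the bound rests in part on single arrays. With normexp it was -1.92 and still called (limma adjusted p = 0.0421). It was also at 0.83 on the cDC1 array and -1.83 ± 1.42 (SD, n = 3) in pDC, both from blood, against -5.71 ± 0.84 (SD, n = 4) in B of the spleen. Among the other 6 red cell, platelet and granulocyte markers, *SELP* was higher in MP and 5 were not called, so that 2 of 7 were called against 22% among all genes with a symbol. The 2 calls became 1 with slide as a fixed block, 1 with normexp and 0 for probes well above background on all 6 arrays. The granulocyte genes *BAC5*, *SC5* and *CATHL3* varied widely within both groups: *BAC5* was at -6.13, 0.26 and -2.12 in MP and at 1.42, -4.70 and -0.91 in cDC2. The B cell marker *CR2* was at -6.17, -4.65 and -1.26 in MP and at -1.20, -3.15 and -2.69 in cDC2, against 4.22 ± 0.02 (SD, n = 4) in B. The part of these markers in the comparison was not tested.

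*MCP-3* was also higher in cDC2, by a measured difference of -6.61 ± 1.505 (SE, limma adjusted p = 0.0115), which was not called without MP replicate 2 or cDC2 replicate 2 or 3. It was at -6.17, -6.61 and -3.30 in MP, with 1 array well above background, so the size of the difference rests on dim values (it was -3.55 with normexp, -5.67 without cDC2 replicate 2 and -8.37 without cDC2 replicate 1), and at -2.27, 3.13 and 2.90 in cDC2. cDC2 replicate 1 thus lay closer to MP replicate 3 than to the other cDC2 arrays. The symbol comes from the RefSeq sheep gene table, which does not say which of the proteins abbreviated in this way is meant, so no role is given.

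**Figure D3:**
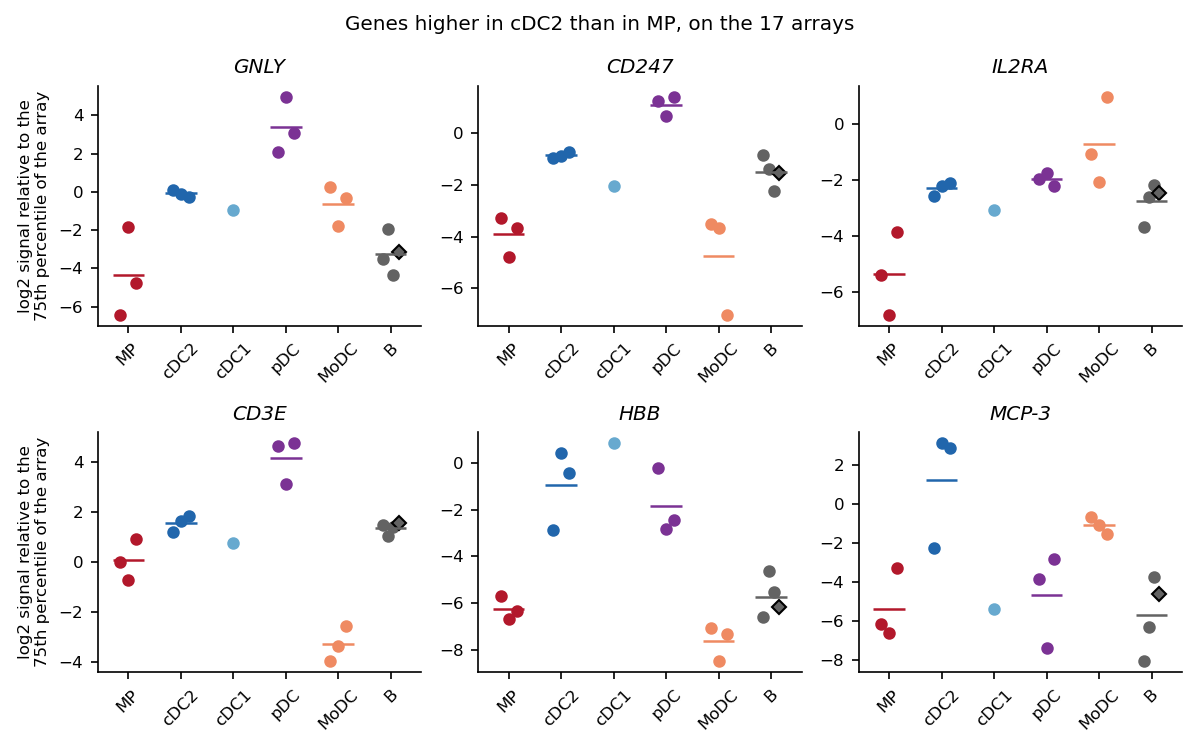
Log2 signal relative to the 75th percentile of the array (vertical axis) in the 6 groups (horizontal axis) for *MCP-3*, the red cell gene *HBB* and 4 genes of T or NK cells, all with higher means in cDC2 than in MP. Each point is 1 array, lines are group means and the diamond is B replicate 4. *HBB* is highest on the cDC1 array and on cDC2 replicate 2, and *GNLY*, *CD247* and *CD3E* are highest in pDC.

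The remaining leading genes higher in cDC2 were mostly dim in MP. *PYGM*, the muscle form of glycogen phosphorylase, was at -3.03, -4.03 and -4.06 in MP and at 0.08, -0.34 and -0.23 in cDC2, an 11.6-fold difference (limma adjusted p = 0.000253) that carried the slide mark. With normexp the difference was -1.97, against -3.54 here. *HYAL2*, a hyaluronidase, was at -0.92, -1.63 and -1.40 in MP and at 1.53, 1.13 and 1.15 in cDC2, 6.003-fold higher (limma adjusted p = 0.0285). Its call was lost when any 1 of the 6 arrays was left out, with differences of -2.79 to -2.43, and with slide as a random block (limma adjusted p = 0.0626). *SLPI*, a protease inhibitor of secretions, and *BMP6*, a bone morphogenetic protein, were well above background on 1 MP array, and *SPA17* on 2. Their differences were -2.40 for *SLPI* (limma adjusted p = 0.00113), -2.37 for *BMP6* (limma adjusted p = 0.0263) and -2.46 for *SPA17* (limma adjusted p = 0.00512). With normexp they were -0.50, -0.12 and -1.23, and *SPA17* alone of the 3 was called. *BMP6* was called without MP replicate 3, at -3.18, and lost its call without any other 1 of the 6 arrays, with the series table of the authors and with slide as a random block. *FGF9* and *SPRN* were not well above background in MP and were at least 2.20-fold and 1.87-fold higher in cDC2. *EPO*, erythropoietin, was at least 1.88-fold higher and carried the slide mark. With normexp these 3 differed by -0.36, -0.39 and -0.41 and were not called, and *EPO* was not called without MP replicate 2 or cDC2 replicate 1 or 3. The probe that the files name *MHC2* was well above background on 1 MP array, with a difference of -3.11 (limma adjusted p = 0.00647) that was -0.78 and not called with normexp, and -4.12 without MP replicate 3. It was dim in B too, at -4.50 ± 0.58 (SD, n = 4), although B cells carry MHC class II. The probe carries a cattle gene identifier, and which gene of that class it measures was not resolved here.

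Of the 30 genes with a symbol higher in cDC2, 17 were not well above background on every MP array, and of the 30 higher in MP, 9 were not well above background on every cDC2 array. The 7 housekeeping genes, among them *GAPDH*, *ACTB* and *RPS26*, had no call in this fit, with a median of -0.28. The lowest was *EF1A1*, at -1.29, and *ACTB*, *HPRT1* and *RPS26* carried the slide mark described below. Their summed signal, as a ratio to the 75th percentile of the array, was 530 to 992 on the MP arrays and 1036 to 1056 on the cDC2 arrays. Of the lists with 1 or 2 members measured, these held no further call: *B2MG* for antigen presentation, *CR2* for complement receptors, *KI67* and *PCNA* for the cell cycle, and *DCN* and *TIMP1* for stroma. The study's human and mouse fingerprints could hardly be read here, since of lists of 75 to 148 symbols very few were measured. Those of cDC over monocytes or macrophages had *FLT3* and *ICAM1* measured, of which *FLT3* was called higher in cDC2. Those of monocytes or macrophages over cDC had *SLC11A1*, *PGD* and *PYGL* measured, of which *SLC11A1* was called higher in MP, against 22% called among all genes with a symbol.

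**Figure D4:**
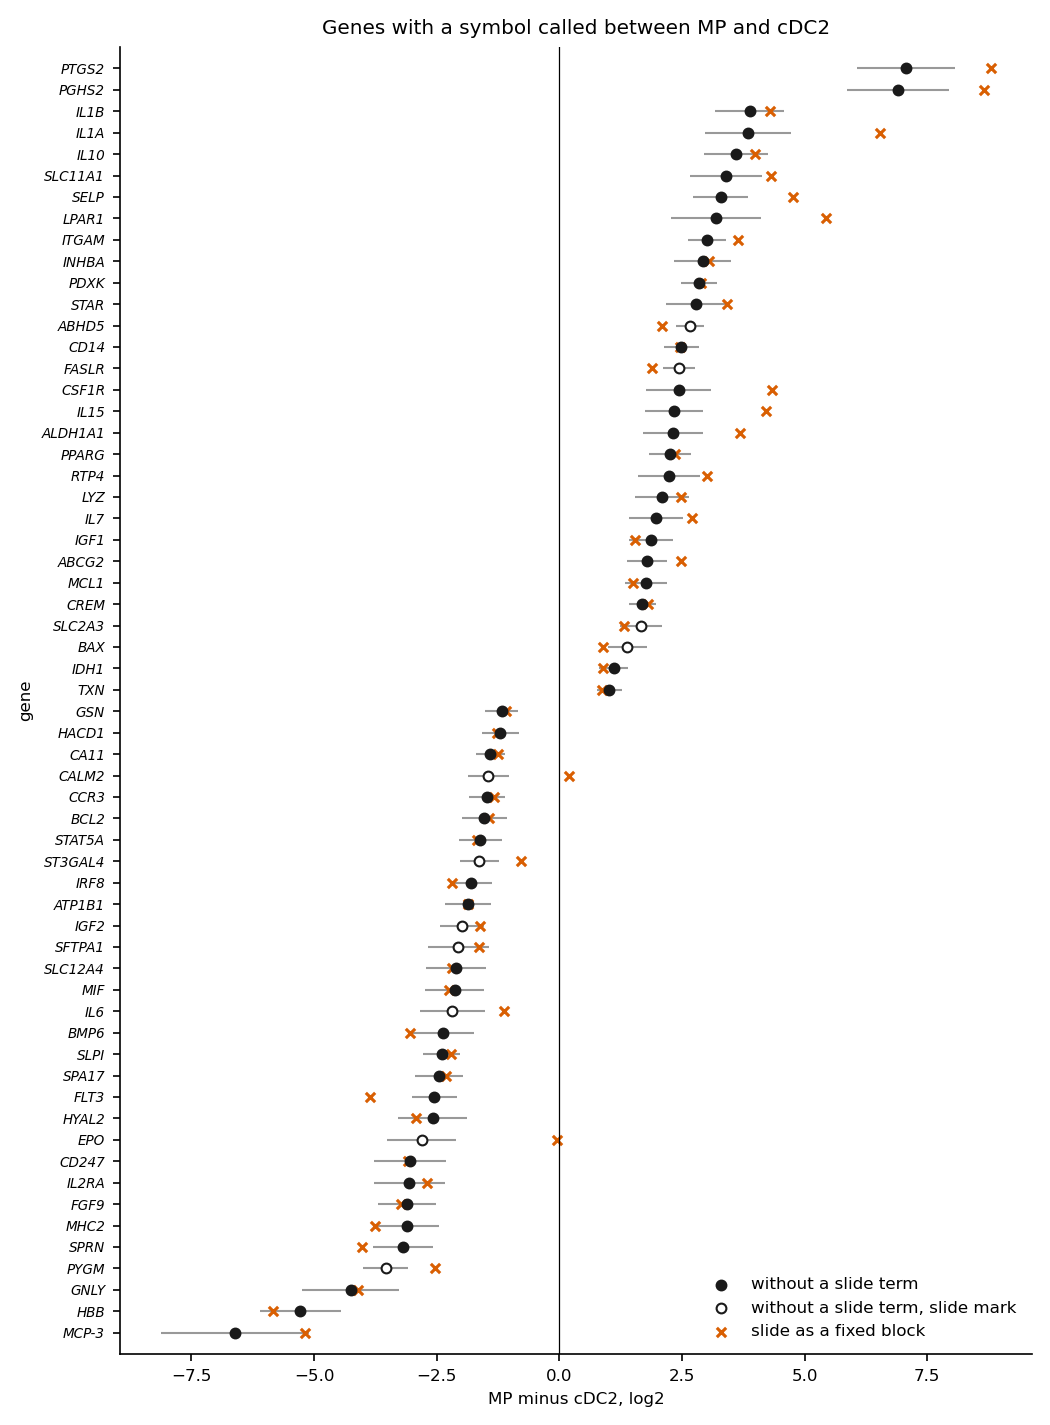
Difference MP minus cDC2 on the log2 scale (horizontal axis) for the 60 called genes with a symbol (vertical axis). Circles are the fit without a slide term with bars of 1 SE, open where the gene carries the slide mark, and crosses are the fit with slide as a fixed block. The crosses of *EPO* and *CALM2* lie near 0, and those of *PTGS2*, *IL1A*, *LPAR1* and *FLT3* lie farther from 0 than their circles.

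Because cDC2 and MP lay on different slides, each gene was marked where B replicate 4 lay outside the range of B replicates 1 to 3 on the side on which cDC2 lay from MP. Among all genes 33.7% had this mark, and among the called genes 37.5%. Of the 60 called genes with a symbol, 11 had it (18.3%). They were *ABHD5*, *FASLR*, *SLC2A3* and *BAX* among those higher in MP, and *PYGM*, *EPO*, *IL6*, *SFTPA1*, *IGF2*, *ST3GAL4* and *CALM2* among those higher in cDC2. For *EPO*, B replicate 4 exceeded the mean of the other B arrays by 2.76, as much as cDC2 exceeded MP, and its difference with slide as a block was -0.04 (limma adjusted p = 0.999). For *CALM2*, calmodulin, singled out after its values were seen, the difference changed sign to 0.20 (limma adjusted p = 0.981). It was the called gene with a symbol whose sign changed.

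For the marker genes the B arrays shifted the other way or hardly at all. *FLT3* was lower on B replicate 4 than on the other B arrays, by 1.31, while it was higher in cDC2 than in MP, so the slide block widened its difference to -3.86 ± 0.54 (SE, limma adjusted p = 0.0198). *CSF1R* was higher on B replicate 4 by 1.91, and its difference with the block was 4.34 ± 0.94 (SE, limma adjusted p = 0.0582). *PTGS2* was higher there by 1.72, with a difference of 8.79 ± 1.83 (SE, limma adjusted p = 0.053). *CD14* departed by -0.03, and its difference of 2.46 ± 0.64 was close to that without the block (SE, limma adjusted p = 0.105). In this fit B replicate 4 alone links the slides, and the median SE over all genes rose from 0.45 to 0.64.

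With slide as a fixed block, 98 of all genes were called (0.866%), and 96 of these were among the 1271. Of the genes with a symbol 4 were called, all of them called without the block. They were *FLT3* toward cDC2 and *SELP*, *IL1A* and *ITGAM* toward MP, with differences of 4.76 (limma adjusted p = 0.0238), 6.53 (limma adjusted p = 0.0331) and 3.64 (limma adjusted p = 0.0367). Of these, *SELP* and *IL1A* were dim in cDC2, and *ITGAM* encodes a marker of the cDC2 gate. With slide as a random block 40 of the 60 genes were called.

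**Figure D5:**
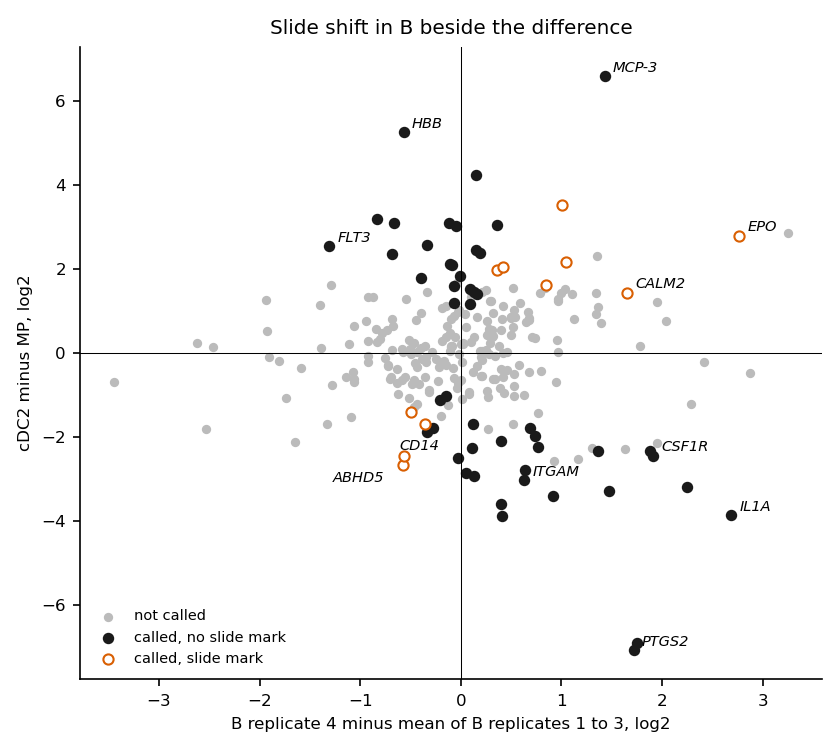
For the 270 genes with a symbol, the difference cDC2 minus MP (vertical axis, log2) against the departure of B replicate 4 from the mean of B replicates 1 to 3 (horizontal axis, log2). Grey points were not called, black points were called and open orange points were called and carry the slide mark. *FLT3* lies to the left while higher in cDC2, *PTGS2*, *CSF1R* and *IL1A* lie to the right while higher in MP, and *EPO* lies where both shifts are alike.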

How the data were processed

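RNA of 17 sorted or cultured samples was measured on 1-colour Agilent arrays, which the authors read with Feature Extraction (versions 10.7.3.1 and, for the slide of cDC2, 10.10.1.1, per the file headers). The deposited intensity is a background-corrected brightness per spot on a linear scale, not normalized between arrays. The deposited flags, of unit other, mark spots well above background, saturated or outlying. The deposited series table holds log2 values of the authors, whose method, centring and scale the table does not state, and served as an alternative. Its rows were matched to probes in the order of probe names (r from 0.969 to 0.988, best with the own array in 17 of 17 columns), and its column medians ranged from 6.55 to 6.61.

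Of 15744 spots, 536 were controls. Values were log2 intensity minus the array's 75th percentile over the 15208 others, outlier spots left out. Probes passed when, on each array of 1 group, over 50% of their spots were flagged well above background, and the brightest probe stood for a gene. The files, or RefSeq accessions (assembly ARS-UI_Ramb_v3.0, names only), gave symbols for 425 genes, of which 270 were tested. Group means were fitted with limma 3.58.1 in R 4.3.3 (Benjamini-Hochberg adjustment) on all 17 arrays, and the fit was tested on simulated data. Named genes were the 4 markers, the 15 largest called differences each way and called members of lists with 3 or more measured genes. Members, lists and rules were chosen with earlier results of these data known. The list of immediate early and stress response factors is not reported here. Alternatives were the scaling, filter, probe rule, blocks and arrays left out. The number of arrays limits the precision.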

Additional observations from a re-analysis of the deposited data

Results flagged for a closer look

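In B, 2 of the 43 genes named by the rule had an array far from the other 3. For *EPO* the gap was 0.840 of the range over the 4 arrays, with B replicate 4 at -5.23 against a mean of -7.99 on the other 3. For *SLPI* the gap was 0.881 of the range, with B replicate 2 at -4.53 and the other 3 arrays between -3.78 and -3.68. Chance alone puts about 1 in 20 groups past this limit. Among the control spots, which entered no comparison, the brightest E1A spike-in had a median signal of 2417 on MP replicate 1, against 32201 to 143267 on the other 5 MP and cDC2 arrays and at most 6.47 for the negative control spots. The other 3 arrays on the slide of MP replicate 1 were as low, at 1437 to 2504, and the other 3 slides lay between 24925 and 143267. Their part in the differences was not tested.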

How the results depend on the processing

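*FLT3* kept its direction and its call under every alternative run, including slide as a block. With slide as a fixed block, which B replicate 4 alone ties to the other slides, 98 of all genes were called in place of 1271, 4 in place of 60 with a symbol, and 4 in place of 49 with a symbol and no slide mark. *CD14* (2.46), *CSF1R* (4.34) and *PTGS2* (8.79) kept their direction there and were not called. The cause was not tested. With slide as a random block 823 genes were called. Normexp background correction gave 822 genes, 30 with a symbol and no slide mark, and turned *IL6* to 0.0163. Probes well above background on all 6 arrays gave 828 genes, of which 60.7% were higher in MP, 34 with a symbol and 27 of these with no slide mark, from fewer genes tested. The 6 arrays fitted alone gave 2346 genes, and leaving out MoDC replicate 3 gave 1922 (79 with a symbol, 61 of these with no slide mark), from a smaller estimate of the spread. A gap of at least 1.5-fold left 2085 of 5506 genes whose arrays did not overlap. Leaving out 1 of the 6 arrays gave 638 (cDC2 replicate 3) to 1156 (MP replicate 3) of all genes, 29 to 52 with a symbol and 25 to 42 of these with no slide mark. Counts of all genes were 808 without MP replicate 1, 731 without MP replicate 2, and 756 and 678 without cDC2 replicates 1 and 2. *CSF1R* then ranged from 2.14 to 2.77 and was called only when cDC2 replicate 1 was left out. Of the other 39 genes named by the rule, 36 lost their call with the fixed block, 18 with normexp (and *IL6* its sign), and 7 to 16 when 1 of the 6 arrays was left out. Numbers of MP and cDC2 arrays were not taken to pair them. Same-numbered deviations from the group means correlated at -0.06, 0.05 and -0.05 across genes. With the groups on different slides, these values cannot show whether animals were shared. With the replicate block 1729 genes were called. Dim probes limit the comparison most in MP, where fewer spots stood above background.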
